A study of Mus musculus with 4 samples.

Results

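H3K4me3 peaks at the ends of protein-coding genes that had neither a CTCF nor a RAD21 peak nearby numbered 4596 in Bruce-4 mouse embryonic stem cells, of 21624 H3K4me3 peaks in all. They were selected by position in all 3 peak lists: an autosomal H3K4me3 peak shorter than 1764 bp, with its midpoint within 1 kb of an end of a coding gene and no CTCF or RAD21 peak within 1 kb of its edges. Absence of CTCF and RAD21, a limited length and nearness to a gene end are therefore properties of the choice, and the peaks chosen this way are called members below. The cells were a C57BL/6J line kept in serum/2i/LIF medium on gelatinized plates, fixed with 1% formaldehyde for 10 min, and profiled by ChIP-exo, in which an exonuclease trims the immunoprecipitated DNA towards the crosslink. There was 1 library for H3K4me3, 1 for RAD21 and 2 for CTCF, all from this 1 line with no treatment in the labels, and the CTCF list, recorded under the second CTCF library, is called a union by its name. Whether it pools both CTCF libraries is not stated, so absence of CTCF here means absence from that list.

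Trimethylation of lysine 4 on histone H3 is laid down at active and poised promoters by SET1 and MLL complexes, which are drawn to unmethylated CpG islands through CXXC domains of their own or of their partners. CTCF is a zinc finger protein that binds a long DNA motif and halts cohesin as cohesin extrudes chromatin loops, and RAD21 is the subunit that closes the cohesin ring. The loader NIPBL is known from active promoters of embryonic stem cells, so a promoter can carry cohesin with or without CTCF.

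The deposited lists held positions alone, with no height or score, so depth was unknown, and a protein listed as absent was one without a called peak. No list had a replicate, and no difference below was tested. Errors are Wilson 95% intervals, limited to counting error, or SDs across the 19 autosomes, which do not stand for replicates. Of 10 defining markers of naive pluripotency 5 had an H3K4me3 peak within 1 kb of an annotated end, namely Pou5f1, Sox2, Zfp42, Tfcp2l1 and Dppa3, while Nanog, Esrrb, Klf4, Prdm14 and Fgf4 had none there. Of 12 fibroblast markers 2 had one, Thy1 and Twist1, and of 10 trophoblast or primitive endoderm markers 5 had one, Cdx2, Ascl2, Hand1, Gata6 and Lama1. On the longer gene lists used below 20 of 28 naive pluripotency genes, 6 of 18 fibroblast genes and 9 of 17 trophoblast or primitive endoderm genes had one. As H3K4me3 also lies on silent developmental promoters, these counts describe the mark and not the makeup of the culture, which was not tested.

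Promoter windows of RefSeq (build GRCm38.p6, the assembly that mm10 names), which run from 250 bases before to 50 bases after a gene's start, show what sequence lay at members. Among the genes on the lists described below that had a member at their start, Ranbp2, which encodes a nucleoporin of the cytoplasmic filaments, had the highest ratio of observed to expected CpG (1.23, with 33 CpG), and Sparc, which encodes a secreted matrix glycoprotein, the lowest (0.174, with 4 CpG). They are printed 5′ to 3′ on the gene's own strand with each CpG in capitals, because they are the extremes of CpG density among these list genes; members at other genes lay below Sparc, as at Frk (0.0703).
Ranbp2, chr10:58446602-58446901, plus strand: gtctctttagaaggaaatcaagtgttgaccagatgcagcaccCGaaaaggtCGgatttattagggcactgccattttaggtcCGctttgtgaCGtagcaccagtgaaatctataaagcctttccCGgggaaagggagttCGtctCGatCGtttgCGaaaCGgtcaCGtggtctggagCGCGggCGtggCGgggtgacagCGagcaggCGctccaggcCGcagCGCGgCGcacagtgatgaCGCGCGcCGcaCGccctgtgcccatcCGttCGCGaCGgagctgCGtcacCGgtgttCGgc
Sparc, chr11:55420031-55420330, minus strand: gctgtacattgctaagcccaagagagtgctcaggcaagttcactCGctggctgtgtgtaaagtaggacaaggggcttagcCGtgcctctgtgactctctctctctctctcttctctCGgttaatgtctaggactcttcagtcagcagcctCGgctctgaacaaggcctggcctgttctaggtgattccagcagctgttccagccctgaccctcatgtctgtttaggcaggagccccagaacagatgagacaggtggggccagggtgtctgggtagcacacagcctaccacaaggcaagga
The member at Ranbp2 was 1049 bp long and that at Sparc 418 bp.

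Stretches of 60 bases from other member promoters carry in capitals the core letters of 1 factor each, on either strand, and are shown because these motifs are compared between groups below. Atg10 holds the letters of NRF1 (GCGCATGC), Atg4b those of YY1 (AAGATGGCG), Cenpf those of ETS factors (CCGGAAGT), Brca2 those of the cyclic AMP response element (TGACGTCA), Mrpl57 those of ZBTB33 (CTCGCGAG) and Bbs9 those of ZNF143 (ACTACAA). Anapc1 holds the letters CNAGGNGGC from the core of the CTCF motif, although its promoter peak is a member and so had no CTCF peak within 1 kb.
Atg10, chr13:91224035-91224094, minus strand: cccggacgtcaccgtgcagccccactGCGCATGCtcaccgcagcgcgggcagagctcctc
Atg4b, chr1:93754755-93754814, plus strand: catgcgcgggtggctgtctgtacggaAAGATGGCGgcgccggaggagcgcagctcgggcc
Cenpf, chr1:189688094-189688153, minus strand: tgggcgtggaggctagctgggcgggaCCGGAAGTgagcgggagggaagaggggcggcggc
Brca2, chr5:150522575-150522634, plus strand: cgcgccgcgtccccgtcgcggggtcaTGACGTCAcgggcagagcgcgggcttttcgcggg
Mrpl57, chr14:57826177-57826236, plus strand: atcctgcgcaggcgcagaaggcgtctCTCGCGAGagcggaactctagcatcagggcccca
Bbs9, chr9:22475637-22475696, plus strand: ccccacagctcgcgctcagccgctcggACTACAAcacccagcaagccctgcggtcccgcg
Anapc1, chr2:128687586-128687645, minus strand: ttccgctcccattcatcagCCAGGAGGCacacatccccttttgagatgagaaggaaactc
Members at these genes measured 591 bp at Atg10, 857 bp at Atg4b, 908 bp at Cenpf, 995 bp at Brca2, 1424 bp at Mrpl57, 954 bp at Bbs9 and 733 bp at Anapc1.

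Gene-end H3K4me3 without either protein was the most frequent of the 4 combinations. Of 11343 autosomal H3K4me3 peaks at coding gene ends and below the length limit, 4596 were members, 40.5% (39.6 to 41.4%). RAD21 without CTCF lay within 1 kb of 2847 peaks (25.1%), CTCF without RAD21 of 741 (6.53%) and both of 3159 (27.8%). Absence of both proteins was more frequent at coding gene ends without H3K4me3 within 1 kb. Of 28435 such ends, 25269 (88.9%, 88.5 to 89.2%) had neither within 1 kb. Those ends were single bases, so the stretch searched was narrower than around a peak. Members touched 4606 of 20665 autosomal coding genes (22.3%), and of the 11423 genes with any H3K4me3 peak at an end 40.3% had a member. These 2 percentages are the background for the gene lists below. Away from coding gene ends, 4878 of 9347 H3K4me3 peaks below the limit lacked both proteins (52.2%, 51.2 to 53.2%), and among 213 gene-end peaks at or above the limit 75 did (35.2%, 29.1 to 41.8%). The number of members depended on which calls exclude a peak. It was 6957 when only CTCF and RAD21 peaks above the median length of their list counted, and 2841 when H3K4me3 peaks below the median length of their list were left out.

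The cut-offs ran through continuous distributions. Among the gene-end peaks 4480 overlapped a CTCF or RAD21 peak, 1744 had the nearer one at 1 to 500 bp and 523 at 501 to 1000 bp, while 390 members had it at 1001 to 1500 bp and 333 at 1501 to 2000 bp. Just inside the limit were peaks at Lhfpl4 (1001 bp), Dpysl2 (1002 bp) and Frk (1003 bp), and just outside it those at Elfn2 (1000 bp), Slc15a1 (999 bp) and Tcf15 (999 bp). The longest members lay at Ptpn23 (1763 bp), at Hras with Lrrc56 (1762 bp) and at Resf1 (1758 bp), against 1767 bp for the first excluded peak, at Ccl25 and Elavl1. At the edge of the gene-end window, members at Slc6a12 and Tdg-ps had midpoints 1000 and 997 bp from the end, against 1001 bp for the excluded peak at Tox2.

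Members were somewhat shorter than gene-end peaks with CTCF or RAD21. Their median length was 792 bp (quartiles 536 and 1071 bp), against 839 bp with RAD21 without CTCF, 853 bp with CTCF without RAD21 and 844 bp with both. The member median was the lower one on 16, 15 and 17 of the 19 autosomes in these 3 comparisons, with mean differences of -41.4 ± 43.9, -66.3 ± 89.2 and -53.6 ± 50.2 bp (SD, n = 19 chromosomes). A longer peak has more room for a CTCF or RAD21 peak beside it, so length and membership are linked by the rule itself. With all H3K4me3 peaks set to 500 bp before the exclusion, 41.8% were members, and their deposited lengths had a median of 805 bp. Lengths of the other classes were not recomputed in that setting, so the 805 bp cannot be set against their medians. The minimum length of the H3K4me3 list, 294 bp, was shared by 156 members (3.39%), against 2.04%, 1.75% and 1.61% of the other classes in the same order.

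Sorted by length into 5 groups of similar size, gene-end peaks of 294 to 514 bp were members in 46.8% of cases (44.7 to 48.8%), and those of 1175 to 1763 bp in 35.9% (33.9 to 37.9%). The groups between gave 40.5%, 40.5% and 38.8%. The groups between differed by less than their intervals.

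**Figure D1:**
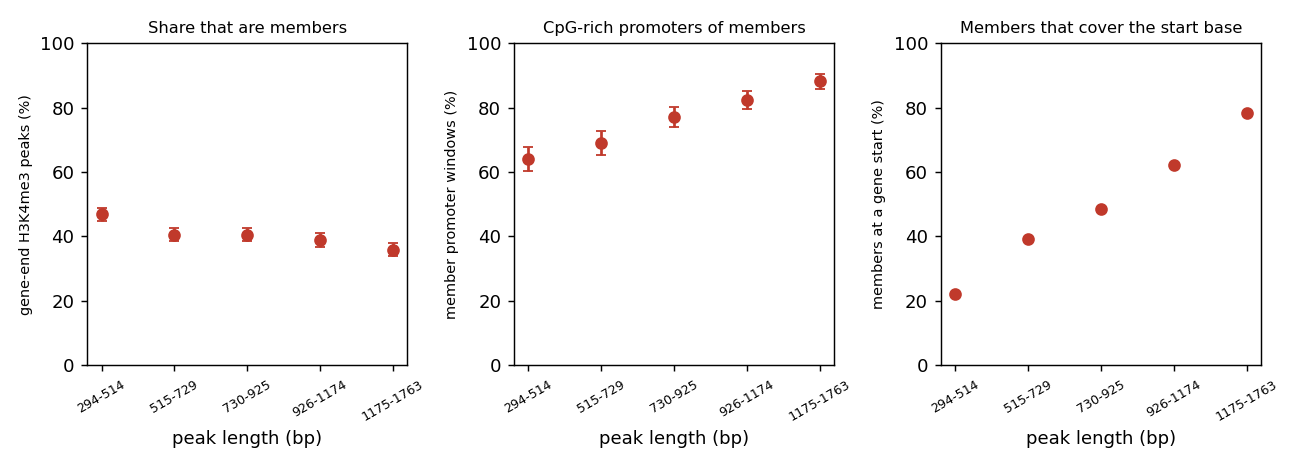
Share of gene-end H3K4me3 peaks that are members (left), share of member promoter windows that are CpG-rich (middle) and share of members at a gene start that cover the start base (right), each in percent for 5 groups of peak length in bp. Error bars are Wilson 95% intervals, not drawn on the right. The left panel falls from 46.8% to 35.9%, while the others rise with length.

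Members lay mostly at starts. Strand was known for genes with a RefSeq promoter window, and 3601 members (78.4%) lay within 1 kb of a known start. Another 889 lay at a gene of unknown strand and 106 at a finish alone. Around the start they were shifted into the gene: the midpoint lay a median of 326 bp downstream (quartiles 129 and 503 bp), and 83.1% of midpoints were downstream. The other classes had medians of 287 bp with RAD21 without CTCF, 343 bp with CTCF without RAD21 and 330 bp with both. The start base itself was under 49% of members, against 55.3% of peaks with RAD21 without CTCF, 45.4% with CTCF without RAD21 and 52.6% with both.

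Most members that reached the start were long. The share covering the start base was 22.2% in the shortest group, then 39.1%, 48.4% and 62.1%, and 78.4% in the longest. Short members were also more scattered, with a quartile range of -243 to 354 bp from the start in the shortest group, against 296 to 491 bp in the middle group. Among the 3094 members at 1 gene start only, the coverage of starts was 25.7% at 250 bp upstream, 47.7% at the start, 77.9% at 250 bp and 72.8% at 500 bp downstream, and 24.8% at 1000 bp. The peaks thus lay over the first part of the gene body more often than over the promoter itself.

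**Figure D2:**
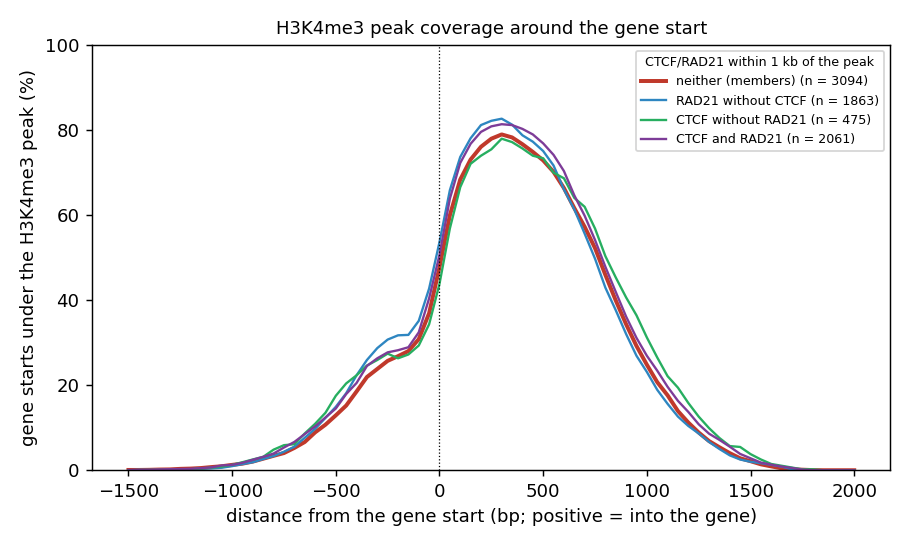
Percentage of gene starts that lie under the H3K4me3 peak at each distance from the start in bp, positive into the gene, for peaks at 1 gene start. Members, in red, reach 77.9% at 250 bp downstream and 25.7% at 250 bp upstream The other classes have curves of the same shape, as at 250 bp downstream with 82.1% for RAD21 without CTCF, 75.4% for CTCF without RAD21 and 80.8% for both.

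Members that lay at a finish alone were 2.86% of those with a known strand (2.37 to 3.45%), against 1.27% (0.884 to 1.81%) of peaks with RAD21 without CTCF, 2.5% with CTCF without RAD21 and 2.73% with both. Of these 106 members, 10 had another RefSeq promoter start within 1 kb and 5 an end of a lncRNA gene. The longest, chosen after their values were seen, lay at the finish of Bad, a BH3-only apoptosis gene (1578 bp), and of Ier5l (1338 bp). Both genes also had a member at their start, of 834 bp at Bad and 419 bp at Ier5l, where the peaks at start and finish lay 231 bp apart.

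Paired genes made up a smaller share of members than of the other classes. Only the interval of RAD21 without CTCF lay wholly above that of members. More than 1 coding gene had an end within 1 kb of 588 members (12.8%, 11.9 to 13.8%), against 15.4% (14.1 to 16.8%) with RAD21 without CTCF, 15.8% (13.3 to 18.6%) with CTCF without RAD21 and 14.6% (13.4 to 15.9%) with both. The member share depended on the gene ends counted, at 9.14% with a gene-end window of 500 bp, 18.5% with 2.5 kb and 22.5% with lncRNA genes included; the other classes were not recomputed there. For starts on both strands within 1 kb of a midpoint, members had 6.72% (6.03 to 7.48%). The order of the starts was not checked, so overlapping genes count here as well as divergent ones. The same share was 10.2% (9.09 to 11.3%) with RAD21 without CTCF, 10.4% (8.39 to 12.8%) with CTCF without RAD21 and 7.98% (7.08 to 8.97%) with both. The member interval lay below those of both classes with a single protein and overlapped that of the class with both. Longer pairs included Hras, a small GTPase, with Lrrc56 (1762 bp), Rps28 with Ndufa7 (1751 bp), and Jmjd6, a 2-oxoglutarate oxygenase, with Mettl23 (1749 bp). Of the 9 members at 3 genes, the 1185 bp peak at Adam15, Dcst1 and Dcst2 had its midpoint within 0.5 bp of the start of Adam15.

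Another H3K4me3 peak lay within 1 kb of 23.8% of members, against 23.7% with RAD21 without CTCF, 30.4% with CTCF without RAD21 and 23.2% with both. Sox2, the pluripotency factor gene, had a member of 312 bp with such a neighbour 250 bp away, and Vim, an intermediate filament gene, one of 303 bp with a neighbour 410 bp away. In all, 294 of the 4606 genes with a member (6.38%) also had an H3K4me3 peak at an end that was no member. For such a gene the label refers to the peak and not to the promoter.

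Across 27 gene lists, 253 of 843 autosomal genes had a member (30%, 27 to 33.2%), and of the 691 with any H3K4me3 peak at an end 36.6% (33.1 to 40.3%). The corresponding figures for all coding genes were 22.3% and 40.3%. Lengths below are those of the longest member at a gene, with a median of 851 bp over all 4606 genes with one.

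Naive pluripotency genes had a member at 9 of 28. The longest lay at Il6st, the gp130 subunit of the LIF receptor complex (1487 bp, chr13:112463381-112464867 in mm10), and at Stat3, the transcription factor that LIF activates (873 bp). Dppa4 (855 bp), Utf1 (739 bp), Dppa5a (644 bp), Dppa2 (628 bp), Lin28a (592 bp), Klf5 (334 bp) and Sox2 (312 bp, chr3:34649995-34650306) had the others. Klf5 also had a longer gene-end peak that was no member (1969 bp). The list's median was 644 bp, against 851 bp for all genes with a member. At the 8 naive genes whose gene-end peak below the limit had CTCF or RAD21, the median was 1334 bp, from Tet2 (383 bp), Dppa3 (436 bp) and Tcl1 (720 bp) to Tdgf1 (1710 bp) and Zfp42 (1711 bp). Peaks of Pou5f1 (2019 bp), Klf2 (2002 bp), Klf5 (1969 bp) and Sall4 (1912 bp) exceeded the length limit.

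Genes of the primed state had a member at 6 of 16: Fst, a secreted activin inhibitor (1373 bp), Dnmt3b, a de novo DNA methyltransferase (1286 bp), Zic2 (1125 bp), the mesoderm factor T (699 bp), Otx2 (447 bp) and Pou3f1 (294 bp). Germ layer regulators had one at 14 of 41, with Sox1 of the neural plate (1334 bp), Isl1 (1095 bp) and the mesendoderm factor Mixl1 (1045 bp) the longest. Cdx2, a trophectoderm and hindgut factor, had the shortest possible call (294 bp), followed by Hand1 (307 bp) and Nkx2-1 (325 bp). Of the germ layer regulators 26 had H3K4me3 at an end at all, so 53.8% of the marked ones had a member (35.5 to 71.2%), an interval that held the 40.3% of all marked genes. Trophoblast and primitive endoderm genes had one at 5 of 17, the longest at Col4a1, a basement membrane collagen gene (1226 bp), and Krt18 (801 bp), with a median of 418 bp. Fibroblast genes with a member were Twist2 (950 bp), Twist1 (791 bp), Thy1 (432 bp) and Vim (303 bp), of 18. Among 34 genes of terminal tissues 4 had one, and among 19 olfactory receptor genes 0, which allows a share of up to 15.8%.

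Immediate early genes, which serum and growth factors induce without new protein synthesis, had a member at 13 of 26 (50%, 32.1 to 67.9%), and at 54.2% of the 24 with any H3K4me3 peak (35.1 to 72.1%). The longest lay at Ier2 (1373 bp), the antiproliferative gene Btg2 (1319 bp) and the ERK phosphatase gene Dusp5 (1316 bp). The AP-1 genes Fosl2 (1048 bp), Junb (520 bp) and Fosl1 (294 bp) had members, and so did Srf (387 bp) and Nr4a1 (623 bp). Peaks at Fos (983 bp), Jun (1009 bp), Egr1 (721 bp) and Myc (1014 bp) had CTCF or RAD21 within 1 kb instead. The member median was 623 bp, against 1012 bp for the 10 genes of the list with a peak below the limit beside CTCF or RAD21.

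Cytosolic ribosomal protein genes stood at the other end of the length range. A member lay at 22 of 75, with a median of 1368 bp, against 851 bp for all genes with a member. The longest lay at Rps28 (1751 bp), Rpl28 (1699 bp), Rpl35a (1673 bp) and Rpl24 (1648 bp). The 38 ribosomal protein genes with a peak below the limit beside CTCF or RAD21 had a median of 1149 bp, against 920 bp for all such genes. Mitochondrial ribosomal protein genes had a member at 23 of 78 with a median of 899 bp, from 480 bp at Mrps2 to 1518 bp at Mrpl43.

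Among machinery of nucleus and genome, DNA repair genes had a member at 18 of 47, led by the homologous recombination gene Rad51c (1508 bp), with Brca1 (613 bp) the shortest. Genes of replication origins and forks had one at 14 of 39, from Cdt1, the licensing factor (466 bp), to Cdc45 of the replicative helicase (1600 bp). Mitotic genes had one at 13 of 39 with a median of 1140 bp, the longest at the spindle kinesin gene Kif11 (1741 bp) and at Anapc13 of the anaphase-promoting complex (1603 bp). RNA polymerase subunits had one at 10 of 27, nucleoporins at 10 of 27, and Integrator and RNA exosome subunits at 7 of 25. Mediator genes had one at 6 of 29, and at 21.4% of the 28 with H3K4me3 (10.2 to 39.5%). Of the genes for cohesin, its regulators and CTCF, 2 of 13 had a member: Stag1 (893 bp), a ring-associated subunit, and Cdca5 (1145 bp), which encodes sororin.

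Respiratory complex I genes had a member at 6 of 34, and at 18.2% of the 33 with H3K4me3 (8.61 to 34.4%). This list and Mediator were the only ones of the 26 with marked genes whose interval lay wholly below 40.3%, and none had an interval wholly above it. The longest of the complex I members was shared by Ndufa7 and Rps28 (1751 bp), and that of Ndufv3 (380 bp) lay at the gene's finish. Proteasome genes had a member at 8 of 32, aminoacyl-tRNA synthetase genes at 12 of 37, and chaperonin and prefoldin genes at 4 of 17.

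Genes of membrane traffic and organelles gave COP coats and exocyst at 12 of 26 (46.2%, 28.8 to 64.5%), led by Sec24a (1498 bp) and Exoc5 (1449 bp) and ending at Sec24d (300 bp). Autophagy genes had a member at 9 of 33, including Rb1cc1 of the ULK1 complex (1491 bp) and the receptor gene Sqstm1 (1341 bp). Peroxins had one at 6 of 16 and genes of GPI anchor synthesis at 9 of 27. Genes of intraflagellar transport and the BBSome, which build cilia, had one at 9 of 31 with a median of 607 bp, from Ift172 (350 bp) to Bbs9 (954 bp).

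**Figure D3:**
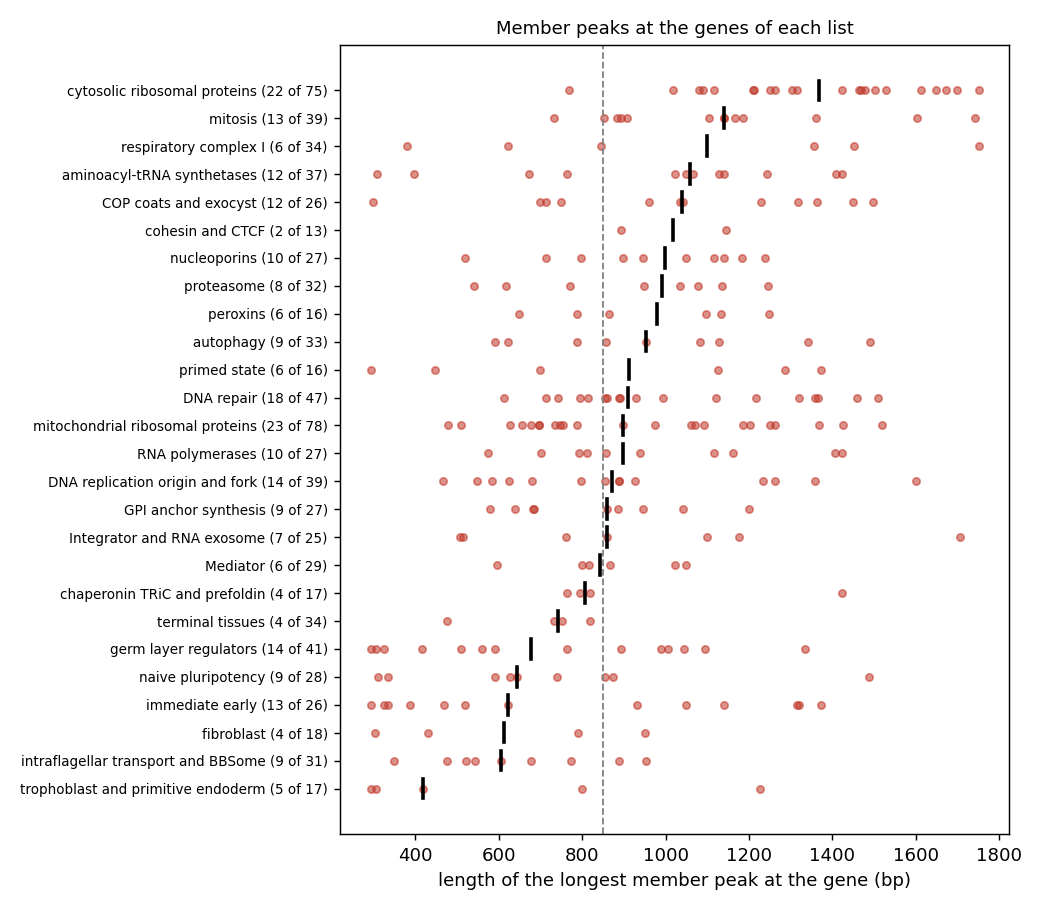
Length in bp of the longest member peak at each gene (points) by gene list, with the list's median (black bar) and the median of all genes with a member, 851 bp (dashed). Numbers in brackets are genes with a member of genes on the list. Ribosomal protein genes lie highest at a median of 1368 bp, and trophoblast and primitive endoderm genes lowest at 418 bp.

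Most promoters at members were rich in CpG, in a share close to that at other gene-end H3K4me3 peaks. Over 3348 member promoter windows the ratio of observed to expected CpG had a median of 0.8 and GC content a median of 63.3%. Windows with a ratio of at least 0.6 and at least 50% GC made up 76.7% (75.2 to 78.1%) of them, against 76.1% (74.3 to 77.9%) with RAD21 without CTCF, 80.4% (76.8 to 83.5%) with CTCF without RAD21 and 77.8% (76 to 79.4%) with both. In windows of genes with no H3K4me3 peak at the start the share was 7.14%, and in all 16457 coding windows 47.3%. Within members the CpG-rich share followed peak length, at 64.1% (60.4 to 67.7%), 69.1%, 77.2%, 82.5% and 88.4% (85.9 to 90.6%) from the shortest length group to the longest, as the middle panel of the plot by length group shows. The median CpG ratio went with it, at 0.721 in the shortest group and 0.874 in the longest.

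Most of the core letters searched were more frequent in member windows than in all coding windows, and matches are given as letters, not as sites. The GC box of SP and KLF factors, GGGCGG, stood in 71.3% of member windows, against 47.3% of all windows. NRF1 letters stood in 6.06%, against 3.66% of all, YY1 letters in 3.17%, against 1.92%, and ZBTB33 letters in 2%, against 1.29%. The E-box CACGTG stood in 11.4%, against 7.97% of all, the ZNF143 letters in 4.45%, against 3.96%, the cyclic AMP element in 3.64%, against 2.4%, and CCAAT, bound by NFY, in 38.5%, against 39.1%. TATAAA stood in 5.94% of member windows, against 24.6% of windows without H3K4me3 at the start and 13.5% of all. The other H3K4me3 classes had shares near those of members: NRF1 letters stood in 6.04% with RAD21 without CTCF, 7.71% with CTCF without RAD21 and 5.19% with both, GGGCGG in 69.7%, 72.8% and 70.3%, and TATAAA in 5.45%, 6.24% and 6.05%. Both strands were searched, and a palindrome such as CACGTG counts once.

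The letters of ETS factors and CTCF were compared between classes. ETS letters stood in 7.97% of member windows (7.1 to 8.94%), against 10% (8.81 to 11.3%) with RAD21 without CTCF, 7.89% (5.91 to 10.5%) with CTCF without RAD21, 9.91% (8.77 to 11.2%) with both and 5.44% of all windows. The member interval overlapped those of the 3 other H3K4me3 classes and lay above that of all windows. The CTCF core letters stood in 12.2% of member windows (11.1 to 13.3%), as seen in Anapc1, against 11.9% (10.6 to 13.3%) with RAD21 without CTCF, 15.4% (12.6 to 18.7%) with CTCF without RAD21 and 17.1% (15.6 to 18.7%) with both. All windows had 10%, and windows without H3K4me3 4.86%. The member interval lay below that of the class with both proteins and overlapped those of the classes with 1. CTCF peaks themselves set these classes, so a difference in CTCF letters is partly built into the comparison. Base composition differed between these groups of windows, and its part in the counts was not tested. Match positions in members had a median at -60 bases from the start for NRF1, -26.5 for ETS and -133 for TATAAA. YY1 letters had a median at 16.5 bases downstream. The windows run from 250 bases before to 50 after the start, so an upstream median is built into the search.

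CTCF and cohesin lay closer to members than to unmarked gene ends. The nearest CTCF peak lay a median of 7114 bp from the member's edge, the nearest RAD21 peak 6494 bp and the nearer of both 5467 bp (quartiles 2769 and 11388 bp). Coding gene ends without H3K4me3 that also had neither protein within 1 kb had medians of 12744, 8723 and 7958 bp. These were measured from the single base of the gene end, so the width of member peaks accounts for part of the difference. The exclusion distance sets part of these values: with exclusion by overlap alone the member medians were 4923 bp for CTCF and 3746 bp for RAD21, and with CTCF and RAD21 peaks above the median length of their list 14239 and 12754 bp. One of the proteins lay within 5 kb of 46.4% of members, against 35.9% of those unmarked ends, and within 20 kb of 89.4%, against 74.2%. The nearest RAD21 peak overlapped a CTCF peak for 70.1% of members (68.8 to 71.5%), against 57.8% of the unmarked ends and 55.9% of all autosomal RAD21 peaks. RAD21 was the nearer protein for 66.4% of members, against 76.9% of the unmarked ends.

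The distances had a long tail. Sorcs1, a sorting receptor gene, had its 720 bp member 254749 bp from the nearest peak of either protein. Npy2r, a neuropeptide Y receptor gene, followed at 143790 bp. Vav3 (126215 bp), Gli3 of the Hedgehog pathway (103266 bp) and Met, the HGF receptor gene (97804 bp), were also among the 10 farthest. At the near side, the promoter of Parp1, a DNA break sensor, had CTCF at 1007 bp and RAD21 at 1417 bp.

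In the flanks, CTCF peaks were denser close to members than farther away, as they also were around unmarked gene ends with neither protein. From 2 to 5 kb of the midpoint there were 6.48 ± 1.58 CTCF peaks per 100 kb around members, and 4.62 ± 0.859 from 50 to 100 kb. Densities are pooled over all peaks of a group, ± the SD over n = 19 chromosomes. RAD21 peaks came to 6.31 ± 1.44 and 5.53 ± 0.679 per 100 kb in the same bins, a difference smaller than the SD of the nearer bin. That bin starts beyond the reach of the exclusion rule. Gene-end peaks with RAD21 without CTCF ran the other way, with 2.18 ± 0.501 CTCF and 2.22 ± 0.628 RAD21 peaks per 100 kb at 2 to 5 kb, against 3.79 ± 0.672 and 4.87 ± 0.578 at 50 to 100 kb. Peaks with both proteins had 3.42 ± 0.646 CTCF and 3.5 ± 0.527 RAD21 peaks per 100 kb at 2 to 5 kb. Those with CTCF without RAD21 had 6.03 ± 1.87 and 5.62 ± 2.09. At 50 to 100 kb these values were 4.53 ± 0.711 and 5.48 ± 0.584 with both, and 5.11 ± 1.05 and 5.95 ± 0.866 with CTCF without RAD21.

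Between 5 and 10 kb this contrast was smaller. Members had 5.19 ± 1.09 CTCF peaks per 100 kb there, against 3.83 ± 0.99 with RAD21 without CTCF, 5.92 ± 1.78 with CTCF without RAD21 and 5.05 ± 1.06 with both. Unmarked gene ends with neither protein within 1 kb had 4.24 ± 0.846 CTCF and 5.26 ± 0.725 RAD21 peaks per 100 kb at 2 to 5 kb. At 50 to 100 kb they had 3.33 ± 0.619 and 4.22 ± 0.558. Unmarked ends with CTCF or RAD21 had 5.09 ± 1.07 and 5.04 ± 0.925 at 2 to 5 kb. Settings of the peak caller for neighbouring calls are not known here, and their part in these densities was not tested.

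**Figure D4:**
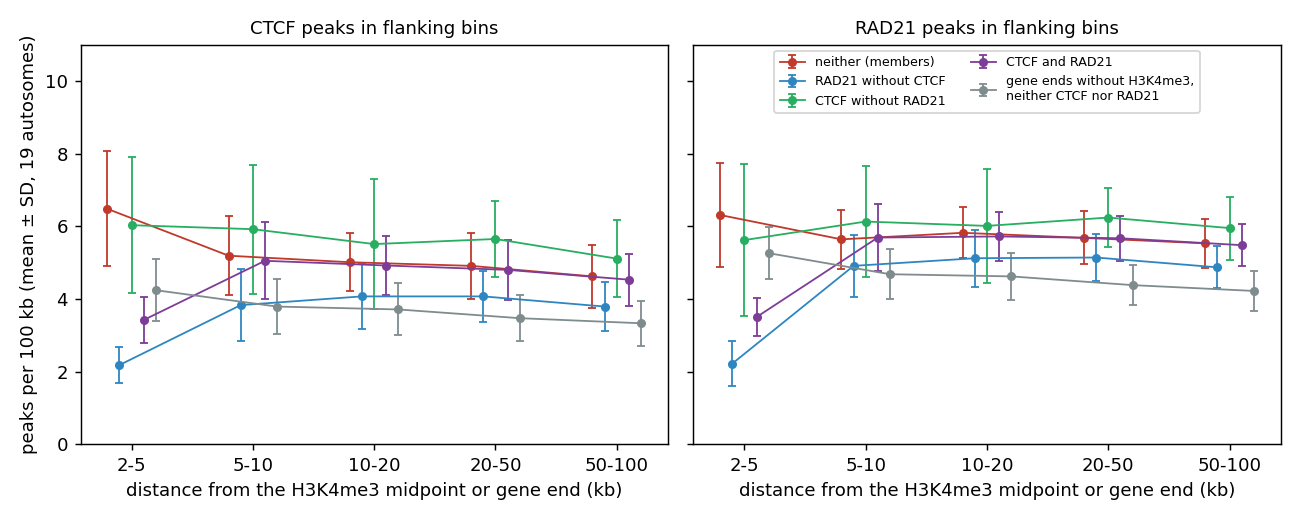
CTCF peaks (left) and RAD21 peaks (right) per 100 kb by distance in kb from the midpoint of the H3K4me3 peak or from the gene end. Points, labelled mean on the axis, are pooled over all peaks of a group, and bars are SDs across the 19 autosomes. Members, in red, have 6.48 CTCF and 6.31 RAD21 peaks per 100 kb at 2 to 5 kb, where peaks with RAD21 without CTCF have 2.18 and 2.22.

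For members at 1 gene start, the nearest CTCF peak lay on the transcribed side in 45% (43.2 to 46.7%) and the nearest RAD21 peak in 44.1% (42.3 to 45.8%), so it lay upstream more often. Sides were judged from the start, but the exclusion of 1 kb was counted from the peak edges. Midpoints at a start lay a median of 326 bp downstream, so the exclusion reached farther into the gene. An upstream excess is thus partly built into the rule, and the other classes were not compared. Coding genes with a member had a CTCF peak somewhere inside the gene in 57.7% of cases and a RAD21 peak in 61.8%, against 51.5% and 60.6% of all autosomal coding genes. Gene length differed too, with a median of 22586 bp for genes with a member and 17491 bp for all coding genes. Genes of the other classes were also longer than all coding genes. Their medians were 25229 bp with RAD21 without CTCF, 21390 bp with CTCF without RAD21 and 20930 bp with both. Among 4076 genes over 4 kb with a member at 1 end, the opposite end had CTCF within 1 kb in 13%, RAD21 in 14.2% and H3K4me3 in 5.64%. As background, 88.9% of all unmarked coding gene ends had neither protein within 1 kb. That set was not limited by gene length, and the difference was not tested.

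The share of gene-end peaks that were members was 40.4 ± 3.1% over the chromosomes (SD, n = 19). It was lowest on chromosome 8, with 204 of 652 (31.3%, 27.8 to 34.9%), and highest on chromosome 15, with 210 of 468 (44.9%, 40.4 to 49.4%). The next lowest was 36.9%, on chromosome 13, and without chromosome 8 the share over all others was 41.1%. As members are the peaks with neither protein, a low share of members is by the rule a high share with RAD21 or CTCF. Chromosome 8 had the highest share of gene-end peaks with RAD21 (60.4%) and with CTCF (41.9%) within 1 kb. At its unmarked gene ends 13.8% had either protein within 1 kb, in a range of 8.25 to 16.5% over the chromosomes. Only chromosomes 18 (16.5%) and 15 (14%) had more there. Members there included those at Sox1 (1334 bp), Ier2 (1373 bp) and Col4a1 (1226 bp).

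**Figure D5:**
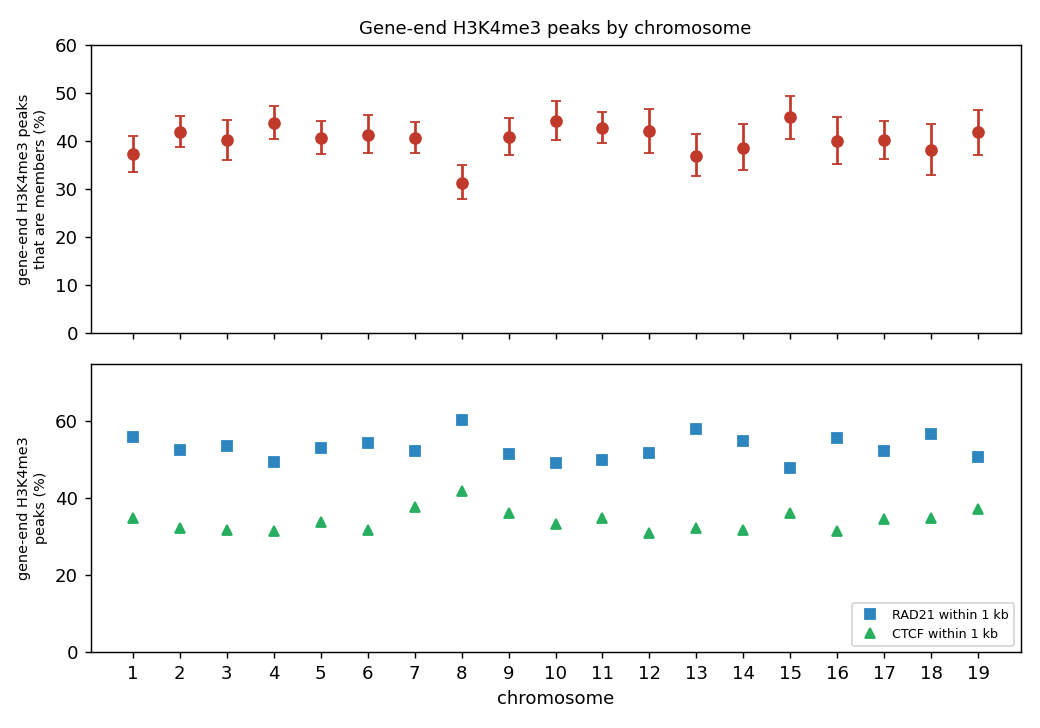
By chromosome, the percentage of gene-end H3K4me3 peaks that are members with Wilson 95% intervals (top), and the percentage with RAD21 (squares) or CTCF (triangles) within 1 kb (bottom). Chromosome 8 has the lowest share of members, 31.3%, and the highest shares with RAD21 and CTCF. The definition of members links the panels.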

How the data were processed

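ChIP-exo peak lists of Bruce-4 mouse embryonic stem cells were used for H3K4me3, CTCF and RAD21. The authors deposited each list as chromosome, start and end, so the unit was a position (other than a count, score or signal). Per the labels the CTCF list belongs to the second CTCF library and is named a union; a list of the first library was not analysed here. Bowtie2 2.4.5, Picard 2.27.4, bedtools 2.30.0, MACS2 and mm10 are named in the submitters' processing notes, whereas steps, settings, peak threshold and any control library were not given in the sources used here. Peak length was therefore the only size measured, and short calls may mark a threshold rather than a domain.

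Ends of 20665 autosomal coding genes were read from RefSeq's gene table (GRCm38.p6), and strand and sequence from RefSeq promoter windows, which covered 16457 of them; windows for chromosome 18 were not used here. Distances were taken between peak edges, or from the single base of an unmarked gene end. Gene ends were matched to the H3K4me3 midpoint within 1000 bp, and classes set by CTCF or RAD21 within 1000 bp. The tools were pandas 2.3.3, numpy 2.4.6 and scipy 1.17.1 under Python 3.11.15, and matplotlib 3.10.9 for figures. Flank densities were pooled over all peaks of a group, with SDs across the 19 autosomes. Promoter windows were searched for 11 motifs on both strands. Replicates were lacking, so no test was run. Distance and motif code was tested on simulated intervals and planted motifs.

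The members, the 27 gene lists and the comparisons were chosen with earlier results of these data known. Genes were named by rule: per list those with the 2 longest and the shortest members, the 10 longest, shortest and farthest from CTCF and RAD21, and those nearest each threshold; other named genes were chosen after their values were seen. Some genes that this rule selects are not reported here. Printed promoters were the first in the alphabet among list genes with a member at the start for each motif, and the extremes of CpG ratio. A further alternative, leaving out chromosome 8, was chosen after seeing the data.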

Additional observations from a re-analysis of the deposited data

How the results depend on the processing

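Under 12 alternatives and 1 added after seeing the data (leaving out chromosome 8), both the number of members and several of their values moved. The number of members, 4596, became 6957 when only CTCF and RAD21 peaks above their median length excluded a peak and 2841 with H3K4me3 peaks at or above the median length. It was within 1.5 times otherwise, but close to that bound at 6863 with exclusion by overlap alone. The share of gene-end peaks that were members, 40.5%, was 45.1% with exclusion within 500 bp, 31.7% within 2.5 kb, 60.5% with exclusion by overlap alone, 38.4% for H3K4me3 peaks at or above the median length, 61.3% with CTCF and RAD21 peaks above the median length, 47.6% without their shortest calls and 41.8% with H3K4me3 peaks resized to 500 bp. The share of coding genes with a member, 22.3%, was 24.9%, 17.6%, 33.5%, 15.2%, 33.3%, 26% and 23% in that order, and 16.5% and 26.4% with gene-end windows of 500 bp and 2.5 kb. Genes on any list with a member, 253, became 388 with exclusion by overlap and 390 with CTCF and RAD21 peaks above the median length. Lower counts, still within 1.5 times, were 183 with exclusion within 2.5 kb and 193 for H3K4me3 peaks at or above the median length. The median CpG ratio of member promoters, 0.8, was 0.833 for H3K4me3 peaks at or above the median length. Of 195 other values 179 stayed within their interval or chromosome spread. The share of members at more than 1 gene ran from 9.14 to 22.5%, the median member length from 746 to 990 bp, the median distance to CTCF from 4923 to 14239 bp and that to RAD21 from 3746 to 12754 bp. No paired analysis was possible because no comparison was made between replicated samples. Depth was unknown, so a protein bound below the calling threshold at a member would be missed.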
